A study of Homo sapiens with 24 samples.

Results

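The 10 genes described here encode the heat-shock factors HSF1 and HSF2, the cytosolic HSP90 chaperones HSP90AA1 and HSP90AB1, the HSP110 chaperone HSPH1, the small heat-shock proteins HSPB1 and HSPB8 with their partner BAG3, and the mitochondrial chaperonin HSPD1 with its lid HSPE1. They were chosen by name, as 10 of the 58721 gene rows in each of 24 RNA-seq count files from A549, a lung adenocarcinoma cell line. All 10 had enough counts to be tested in every comparison. The study asked how the transcriptome depends on MYBL2 and FOXM1, transcription factors that act on cell-cycle genes. Cells received 25 nM of siRNA against MYBL2 (siMYBL2, 4 libraries), against FOXM1 (siFOXM1, 4 libraries) or scrambled siRNA (siControl, 4 libraries). In a separate experiment, cells received siRNAs against both genes together (siBoth, 3 libraries) or scrambled siRNA (siControl_Both, 3 libraries). The dose of each siRNA in the mixture is not given in the sources used here. In another experiment, cells were kept for 24 h with 20 µM FDI-6, a forkhead domain inhibitor that keeps FOXM1 off DNA (FDI-6, 3 libraries), or served as wild-type controls (control_FDI-6, 3 libraries). The labels name no vehicle for those controls. The study's text names DMSO for this comparison in the heading of its gene lists, and untreated cells in a figure legend. All 7 groups are of the same tumour line, so no untransformed lung cell was measured.

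Heat-shock factors are transcription factors that bind, as trimers, to repeated sites called heat-shock elements. HSF1 is the main activator of the response when unfolded protein accumulates, and HSP90 and HSP70 chaperones bind HSF1 and hold it inactive. Cytosolic HSP90 folds kinases and hormone receptors, HSP110 is a nucleotide exchange factor for HSP70, small heat-shock proteins hold unfolded protein in solution, and BAG3 links HSPB8 and HSP70 to autophagy. HSPD1 and HSPE1 form the folding chamber of the mitochondrial matrix, and their genes lie head to head. Tumour cells often depend on this machinery, and HSF1 also drives genes outside the heat-shock response in them.

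A RefSeq promoter window (GRCh38.p14, from 250 bases before to 50 bases after the start) was found for 9 of the 10 genes. A heat-shock element repeats the unit GAA in alternating direction, so the windows were searched for a pair of units, GAANNTTC or TTCNNGAA. Each reads the same on both strands, and both overlap where 3 units follow each other (GAANNTTCNNGAA or its reverse complement). A pair was found in 4 of the 9 windows, against 13.5% of 35116 RefSeq windows of this length, and 3 units in a row were found in 2 of the 9, against 0.49%. The 4 windows that hold a pair, and that of BAG3 as one with no exact pair, are shown 5′ to 3′, with pairs in capitals.
HSP90AA1, chr14:102086995-102087294, minus strand: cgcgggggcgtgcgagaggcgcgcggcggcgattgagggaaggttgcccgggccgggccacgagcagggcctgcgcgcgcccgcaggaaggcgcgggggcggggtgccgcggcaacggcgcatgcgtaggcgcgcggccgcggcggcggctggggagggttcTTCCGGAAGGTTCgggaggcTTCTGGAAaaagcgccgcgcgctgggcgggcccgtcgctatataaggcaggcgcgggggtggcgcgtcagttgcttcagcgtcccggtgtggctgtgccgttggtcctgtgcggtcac
HSPD1, chr2:197499791-197500090, minus strand: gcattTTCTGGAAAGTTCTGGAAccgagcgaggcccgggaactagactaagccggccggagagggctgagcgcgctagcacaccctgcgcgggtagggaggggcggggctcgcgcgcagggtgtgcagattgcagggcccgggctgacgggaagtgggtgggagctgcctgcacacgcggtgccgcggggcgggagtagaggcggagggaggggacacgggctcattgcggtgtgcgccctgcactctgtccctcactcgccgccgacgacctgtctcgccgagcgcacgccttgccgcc
HSPB1, chr7:76302423-76302722, plus strand: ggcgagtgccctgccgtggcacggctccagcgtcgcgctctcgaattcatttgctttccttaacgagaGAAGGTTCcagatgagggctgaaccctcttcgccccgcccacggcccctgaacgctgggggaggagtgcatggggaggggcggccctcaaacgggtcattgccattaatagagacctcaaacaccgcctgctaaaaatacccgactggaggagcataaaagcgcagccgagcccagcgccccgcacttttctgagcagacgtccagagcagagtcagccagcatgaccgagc
HSPB8, chr12:119178681-119178980, plus strand: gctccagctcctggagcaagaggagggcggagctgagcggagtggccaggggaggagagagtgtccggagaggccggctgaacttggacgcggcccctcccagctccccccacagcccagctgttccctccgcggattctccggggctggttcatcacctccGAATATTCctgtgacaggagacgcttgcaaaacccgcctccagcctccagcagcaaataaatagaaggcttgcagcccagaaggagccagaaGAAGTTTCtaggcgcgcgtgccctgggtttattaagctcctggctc
BAG3, chr10:119651130-119651429, plus strand: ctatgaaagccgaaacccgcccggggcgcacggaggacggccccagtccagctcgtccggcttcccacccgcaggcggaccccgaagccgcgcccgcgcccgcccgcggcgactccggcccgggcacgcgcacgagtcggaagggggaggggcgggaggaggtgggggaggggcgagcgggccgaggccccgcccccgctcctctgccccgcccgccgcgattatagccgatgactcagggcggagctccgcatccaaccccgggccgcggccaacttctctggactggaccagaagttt

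In HSP90AA1 the first of 3 pairs began at position -88 from the start and the last at -68, and the first pair ran into the second. In HSPD1 all 3 pairs overlapped from -245 on, on the side that faces HSPE1, whose own window lies 38 bases away and held no pair. HSPB1 held a single pair at -182. HSPB8 held 1 at -88 and another at 5, inside the transcribed part. The windows of HSF2, HSP90AB1 and HSPH1 also held no exact pair. The HSPH1 window belongs to a start site 484 bases upstream of that of its canonical transcript, so the canonical promoter was not searched. The cell-cycle element TTTGAA, searched on both strands, was found in 1 of the 9 windows (HSPH1, at -230 from that upstream start site), against 15.2% of all windows. A match describes letters in a window and does not show a site in use.

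Each library had between 16487394 and 30140550 read pairs counted on genes. The targeted genes followed the labels. MYBL2 was at 4.2% of its siControl mean in siMYBL2 and at 4.9% of its control mean in siBoth, and FOXM1 was at 9.6% in siFOXM1 and at 9.7% in siBoth. FOXM1 was also at 60.2% in siMYBL2. With FDI-6, MYBL2 transcript was at 70.1% and FOXM1 transcript at 77.6% of the control_FDI-6 mean. All 11 A549 markers (keratins, aldehyde dehydrogenase and NRF2-driven genes such as NQO1) stood over 1 CPM in all 24 libraries. CPM stands for counts per 1e6 read pairs on genes, with library sizes scaled by TMM over all 24 libraries. Their summed level in siFOXM1, 16900 to 21000 CPM, overlapped that in siControl, 17600 to 21400 CPM. It was lower than in the controls in the other treatments, at 11500 to 15300 CPM in siMYBL2, 9310 to 11800 in siBoth against 12400 to 17300, and 16000 to 16600 with FDI-6 against 22200 to 23200. Of 11 markers of immune, endothelial and fibroblast cells, 6 stayed under 1 CPM in all libraries and CD3E was at 0 in all of them. Their sum was 32.5 to 54.7 CPM in siMYBL2 and 31.6 to 52.2 in siFOXM1, against 23.8 to 39.7 in siControl. It was 49.7 to 71.7 in siBoth against 35.9 to 46.3, and 7.83 to 13.3 with FDI-6 against 21.6 to 23.7. COL1A1 was the most abundant of these markers (4.91 to 58.8 CPM), and CD14 (1.88 to 15.1 CPM) also stood over 1 CPM in all 24 libraries. Of 4 alveolar markers, NKX2-1, SFTPC and SFTPB stayed under 1 CPM throughout, and AGER stood at 2.11 to 7.9 CPM. The part of these shifts in the results was not tested.

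In the controls of the single knockdowns the abundance of the 10 genes spanned a wide range. Levels of different genes are compared per kb of merged exons in GENCODE V44, a later release than the one named in the methods. In the 4 siControl libraries HSP90AB1 stood highest, at 698 ± 79.1 CPM per kb (SD, n = 4), and HSP90AA1 followed at 593 ± 88.6, with overlapping ranges. Next came HSPB1 at 220 ± 6.75 CPM per kb and HSPD1 at 133 ± 13.6, each apart from its neighbours in every library. BAG3 (45.5 ± 7.63 CPM per kb) and HSPH1 (36.1 ± 5.69) overlapped, HSF1 stood alone at 19.7 ± 1.36, HSPE1 at 10.6 ± 0.669, and HSF2 (5.35 ± 0.561) and HSPB8 (4.73 ± 0.940) overlapped at the low end. Of the exon bases of the canonical HSPE1 transcript, 34.5% also belong to the read-through gene HSPE1-MOB4. HSPE1 may thus be undercounted, and the part of this in its place was not tested. Per kb of the canonical transcript, HSP90AA1 (937 ± 140.0 CPM per kb) came before HSP90AB1 (814 ± 92.2), again with overlapping ranges, and HSPB1 and HSPD1 overlapped. In siControl the order of the cytosolic HSP90 genes thus changed with the length used. In siControl_Both, HSP90AB1 came first by both lengths, at 844 ± 44.2 against 573 ± 80.6 CPM per kb of merged exons (SD, n = 3), and at 984 ± 51.6 against 905 ± 127 per kb of the canonical transcript, where the ranges overlapped. Over all 24 libraries HSPD1 varied least, by 1.5-fold from its lowest to its highest CPM, and HSPB8 most, by 5.38-fold.

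**Figure D1:**
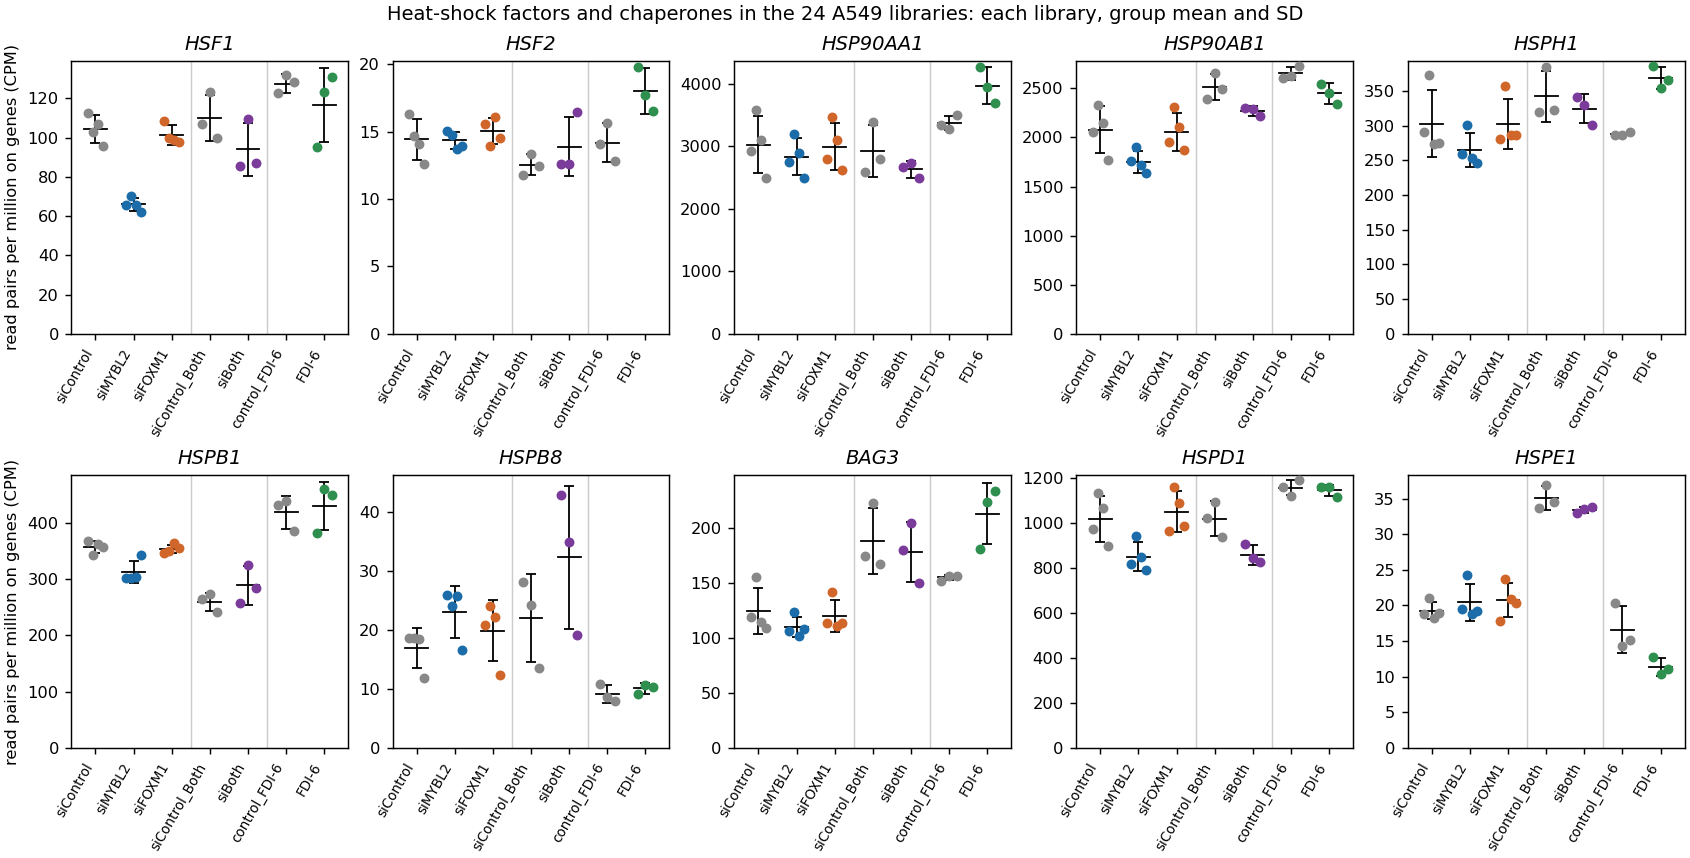
CPM of each of the 10 genes (y axis, from 0) in each of the 24 libraries (points), by group (x axis), with the group mean and SD as black bars and the 3 experiments set apart by vertical lines. The 4 siMYBL2 libraries stood between 62.06 and 70.48 CPM for HSF1, below all other libraries, and the 3 FDI-6 libraries stood above their controls for HSPH1 and BAG3.

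HSF1 was the only 1 of the 10 genes past both thresholds in any treatment against its control, an adjusted p under 0.05 by edgeR's quasi-likelihood test and a change of over 1.5-fold. That was in siMYBL2, where 7.9% of the 16065 genes tested passed both. The gene lies at chr8:144291591-144314720 on the plus strand (hg38, GENCODE V44). HSF1 stood at 65.9, 70.5, 65.6 and 62.1 CPM in siMYBL2 replicates 1 to 4 and at 112.8, 102.8, 106.8 and 95.6 CPM in siControl. The highest siMYBL2 library was thus below the lowest control. The fold change was 0.632 (95% interval 0.567 to 0.705), which is -0.66 on the log2 scale (SE 0.07, adjusted p 0.000525). It passed both thresholds with each of the 8 libraries left out in turn, with adjusted p from 0.000629 to 0.00365. A test of whether the change exceeds 1.5-fold (glmTreat) gave an adjusted p of 0.874, since the interval reaches above that limit. In these bulk libraries, less transcript in each cell and fewer cells that hold it cannot be told apart. Of the merged exon bases of HSF1, 2.58% overlap genes on the other strand, and the strand setting of the counting is not given in the sources used here.

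In siFOXM1, set against the same 4 siControl libraries, HSF1 stood at 108.7, 99.7, 98.8 and 97.6 CPM, inside the range of the controls. Its log2 fold change there was -0.05 (SE 0.07, 95% interval -0.20 to 0.10, adjusted p 0.84). In siBoth it stood at 85.4, 109.7 and 86.9 CPM against 107.0, 123.1 and 99.97 CPM in siControl_Both. The groups overlapped, although each siBoth library was below the control of the same number. The log2 fold change was -0.23 (SE 0.12, adjusted p 0.25). In a fit that took the replicate number as a block the value was -0.23 (SE 0.07) and the adjusted p 0.016. With FDI-6, HSF1 stood at 95.3, 123.5 and 130.9 CPM against 122.6, 131.8 and 128.3, with overlap (log2 fold change -0.13, SE 0.10, adjusted p 0.34).

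HSF2, a factor that can join HSF1 in mixed trimers, lies at chr6:122399551-122433119 on the plus strand. In the knockdowns its log2 fold change was -0.0049 in siMYBL2, 0.05 in siFOXM1 and 0.15 in siBoth, with adjusted p from 0.53 to 0.98. HSF2 rose with FDI-6, from 14.1, 15.7 and 12.8 CPM in the controls to 19.8, 17.7 and 16.5 CPM. The groups did not overlap, and the log2 fold change was 0.34 (SE 0.11, adjusted p 0.035), under 1.5-fold. This call was the least steady of those with FDI-6. It was lost by DESeq2 (adjusted p 0.067) and without FDI-6 replicate 1 (0.0523), FDI-6 replicate 2 (0.0727), control replicate 1 (0.110) or control replicate 3 (0.139).

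The counts of the 10 genes past the thresholds differed between the comparisons, as did the share of all genes. In siMYBL2, HSF1 was also the only 1 of the 10 at an adjusted p under 0.05 with no limit on the fold by edgeR, where 18.1% of all genes passed. By DESeq2 2 of the 10 passed that limit (HSF1 and HSPB1), where 3476 of 34463 genes with any count did. In a fit of all 24 libraries 3 of the 10 passed (HSF1, HSP90AB1 and HSPD1), where 3779 of 17752 genes did. Over the 10 genes the median log2 fold change was -0.19, against 0.02 over all genes tested. With the replicate block, 7 of the 10 passed at an adjusted p under 0.05 (6 lower, 1 higher), where 46.7% of all genes did. In siFOXM1 edgeR called 0 of the 10 under either rule, where 0.667% of all genes passed both thresholds and 1.37% the adjusted p. DESeq2 also called 0, and 0 had an unadjusted p under 0.05, where 13% of all genes did. With the block 1 of the 10 had an adjusted p under 0.05, where 26.3% of all genes did. In siBoth edgeR also called 0 of the 10 under either rule, where 6.44% of all genes passed both thresholds and 12.3% the adjusted p. DESeq2 called 0, and 1 (HSPD1) had an unadjusted p under 0.05, where 29.6% of all genes did. With the block 3 had an adjusted p under 0.05, where 34.8% of all genes did. The siBoth libraries had more unaligned pairs than their controls, 9.088 to 10.926% against 7.684 to 7.923% of the pairs in the files, and the part of this in the siBoth values was not tested. With FDI-6 edgeR and DESeq2 each found 0 of the 10 past both thresholds, where 13.8% of all genes passed them by edgeR. At an adjusted p under 0.05 with no limit on the fold, 5 of the 10 passed (4 higher, 1 lower) by edgeR, where 38.9% of all genes did, and 6 had an unadjusted p under 0.05, where 47.7% of all genes did. siMYBL2 and siFOXM1 share their control libraries.

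**Figure D2:**
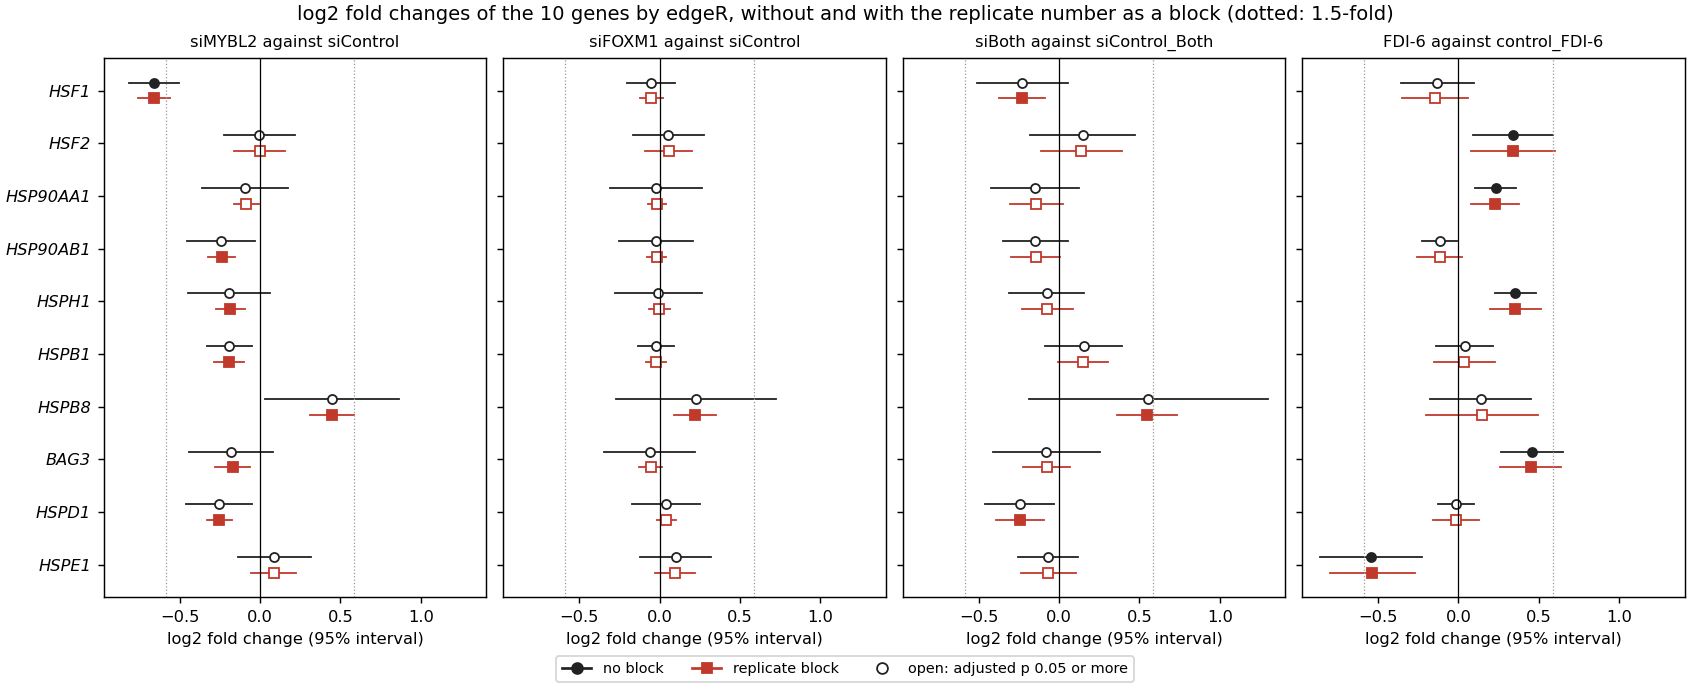
log2 fold changes (x axis) of the 10 genes (y axis) in the 4 comparisons, as points with 95% intervals, fitted without (circles) and with (squares) a block for the replicate number. Filled points have an adjusted p under 0.05 by edgeR and dotted lines mark 1.5-fold. HSF1 in siMYBL2 is the one value past the dotted line without a block whose adjusted p is under 0.05.

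HSP90AA1, the stress-inducible form (chr14:102080742-102139699, minus strand), rose from 3332, 3277 and 3505 CPM in the controls to 4272, 3940 and 3688 CPM. No FDI-6 library overlapped the controls. On the log2 scale the rise was 0.23 (SE 0.06, fold 1.17, 95% interval 1.07 to 1.28, adjusted p 0.0087). Without control replicate 2 the adjusted p was 0.0523, and in a fit of all 24 libraries it was 0.169. HSP90AB1, the constitutive form (chr6:44246166-44253888, plus strand), stood at 2550.0, 2458 and 2342 CPM against 2608, 2626 and 2724 CPM, below the controls in all 3 libraries. Its log2 fold change of -0.12 (SE 0.05) did not pass (adjusted p 0.087). It passed with upper-quartile scaling (-0.16, adjusted p 0.0282) and without FDI-6 replicate 1 (-0.14, adjusted p 0.00662).

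In the knockdowns HSP90AA1 did not pass in any fit without or with the block, with log2 fold changes of -0.09 in siMYBL2, -0.02 in siFOXM1 and -0.15 in siBoth. HSP90AB1 stood at 1756, 1906, 1716 and 1636 CPM in siMYBL2 and at 2059, 2336, 2152 and 1771 CPM in siControl. The ranges overlapped through siControl replicate 4, but each siMYBL2 library was below the control of its own number. The log2 fold change was -0.24 (SE 0.09, adjusted p 0.105), and with the block HSP90AB1 fell at an adjusted p of 0.000264. Its value was -0.02 in siFOXM1 and -0.15 in siBoth, where all 3 libraries (2304, 2290.0 and 2214 CPM) stood below the controls (2392, 2654 and 2498 CPM) and the adjusted p was 0.304. HSP90AA1 has 3.87% of its merged exon bases opposite WDR20. The pseudogenes of HSP90AA1 and HSP90AB1 together held at most 0.0959% of the parent gene's level in any library.

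HSPH1 (chr13:31134973-31162388, minus strand) had the lowest adjusted p of the 10 genes with FDI-6. It rose from 286.2, 286.8 and 290.5 CPM to 385.8, 354.5 and 365.4 CPM. The 3 controls were within a few CPM of each other and all FDI-6 libraries stood above them. On the log2 scale it rose by 0.35 (SE 0.06, fold 1.28, 95% interval 1.17 to 1.39, adjusted p 0.00064), and it passed with each of the 6 libraries left out. In siMYBL2 HSPH1 stood at 258.6, 300.9, 253.2 and 246.1 CPM against 290.3, 373.6, 273.1 and 274.6 CPM in siControl. Replicate 2 was the highest library in both groups, and all 4 pairs were lower in siMYBL2. The log2 fold change of -0.19 (SE 0.11) had an adjusted p of 0.277, and with the block HSPH1 fell at an adjusted p of 0.00243. It was at -0.01 in siFOXM1 and at -0.08 in siBoth, with no call in either fit.

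BAG3 (chr10:119651380-119677819, plus strand) also rose with FDI-6, from 152.1, 156.3 and 156.3 CPM to 181.1, 223.9 and 233.8 CPM, without overlap. Its log2 fold change of 0.46 (SE 0.09, fold 1.37, 95% interval 1.20 to 1.57, adjusted p 0.00203) was the largest rise of the 10 genes in that comparison. It passed with each of the 6 libraries left out, and its lowest FDI-6 library was replicate 1. In siMYBL2 it stood at 106.5, 123.1, 101.5 and 107.7 CPM against 119.2, 155.1, 114.9 and 108.6 CPM, and the groups overlapped. Its log2 fold change there was -0.18 (SE 0.12, adjusted p 0.317), and with the block BAG3 fell at an adjusted p of 0.0134. It was at -0.06 in siFOXM1 and at -0.08 in siBoth.

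HSPB1 (HSP27, chr7:76302673-76304295, plus strand) stood at 301.7, 302.8, 304.1 and 342.4 CPM in siMYBL2 and at 367.8, 342.7, 363.4 and 357.0 CPM in siControl. The groups came close but did not overlap. The log2 fold change was -0.19 (SE 0.06, adjusted p 0.062), and with the block HSPB1 fell at an adjusted p of 0.00193. Its value was -0.02 in siFOXM1, 0.15 in siBoth and 0.04 with FDI-6, none past an adjusted p of 0.05 in either fit.

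HSPB8 (HSP22, chr12:119171555-119224855, plus strand) was the only 1 of the 10 genes that was higher in every same-numbered pair of all 3 knockdown comparisons. The share of all genes with this pattern was not counted, and siMYBL2 and siFOXM1 were set against the same siControl libraries. It stood at 26.0, 24.0, 25.7 and 16.6 CPM in siMYBL2, at 20.9, 24.1, 22.3 and 12.4 CPM in siFOXM1, and at 18.7, 18.7, 18.5 and 11.9 CPM in siControl. In siBoth it stood at 42.9, 34.9 and 19.2 CPM against 28.2, 24.3 and 13.6 CPM in siControl_Both. Replicate 4 was lowest in all 3 groups of the single knockdowns, and replicate 3 in both groups of the double knockdown, so that the ranges overlapped each time. With low genes filtered and no block none of these passed, with log2 fold changes of 0.45 (SE 0.19, adjusted p 0.130), 0.23 (SE 0.22, adjusted p 0.766) and 0.56 (SE 0.32, adjusted p 0.289). With no filter on low genes, and no block, the siBoth value of 0.55 had an adjusted p of 0.00878. With the block HSPB8 rose in all 3, by 0.45 (SE 0.06, adjusted p 6.37e-05) in siMYBL2, 0.22 (SE 0.06, adjusted p 0.0106) in siFOXM1 and 0.55 (SE 0.09, adjusted p 0.000166) in siBoth. Of all genes, 46.7, 26.3 and 34.8% passed an adjusted p of 0.05 in these blocked fits. With FDI-6 it stood at 9.10, 10.7 and 10.4 CPM against 10.8, 8.68 and 7.98 CPM, below all 18 transfected libraries, with a log2 fold change of 0.14 (SE 0.14, adjusted p 0.474).

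**Figure D3:**
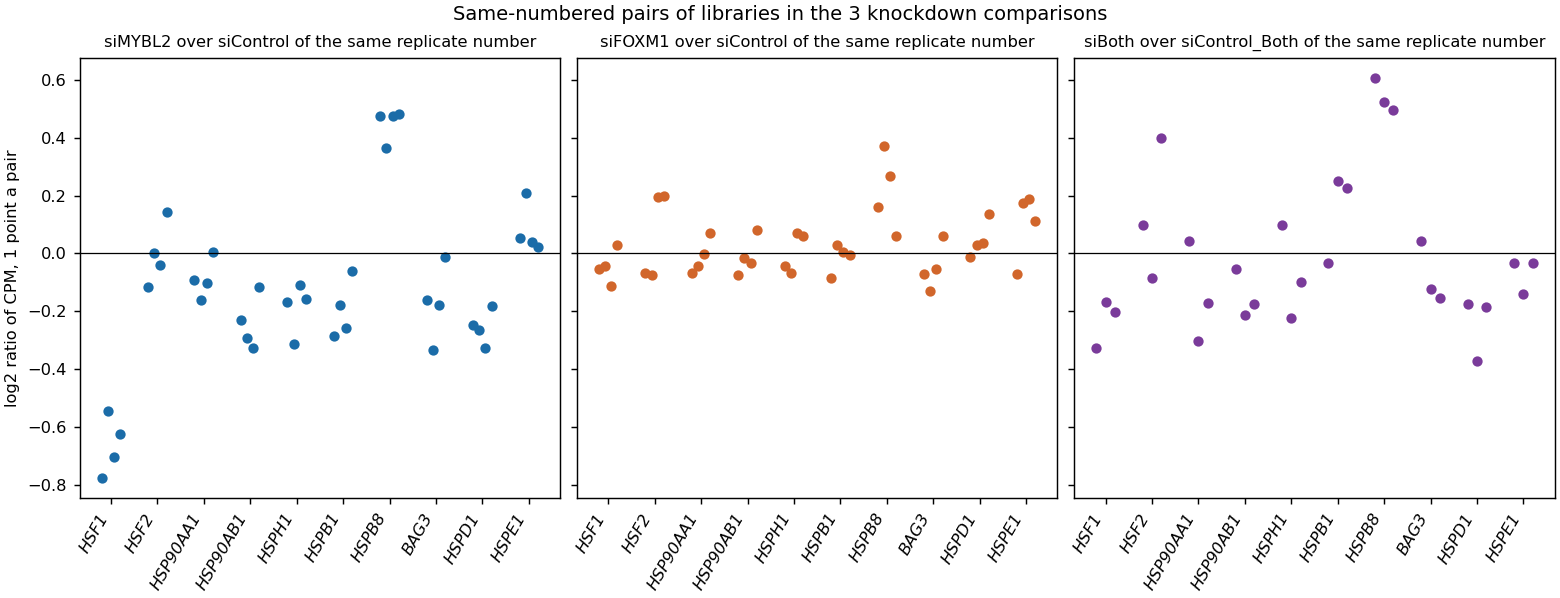
log2 ratio of CPM (y axis) between a knockdown library and the control library of the same replicate number, 1 point per pair, for the 10 genes (x axis) in the 3 knockdown comparisons. The points of HSPB8 lie above 0 in all 3 panels, and those of HSF1 lie between -0.776 and -0.545 in siMYBL2.

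HSPD1 (HSP60, chr2:197486584-197516737, minus strand) was lower in each same-numbered pair with MYBL2 siRNA. It stood at 817.6, 942.6, 847.3 and 790.7 CPM in siMYBL2 and at 970.8, 1133, 1063 and 895.7 CPM in siControl. The ranges overlapped. The log2 fold change was -0.26 (SE 0.09, adjusted p 0.085), and with the block HSPD1 fell at an adjusted p of 7.86e-05. In siBoth it stood at 907.1, 843.2 and 823.2 CPM against 1023, 1091 and 936.3 CPM, without overlap. There the log2 fold change was -0.24 (SE 0.09, adjusted p 0.125), and with the block HSPD1 fell at an adjusted p of 0.0145. It was at 0.04 in siFOXM1 and at -0.02 with FDI-6 (95% interval -0.13 to 0.09), with no call in either fit. HSPD1 shares 1.77% of its merged exon bases with HSPE1 on the other strand, and its 18 pseudogenes held at most 0.208% of its level.

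HSPE1 (HSP10, chr2:197500140-197503449, plus strand), the partner of HSPD1, was the 1 gene of the 10 that fell with FDI-6. It went from 20.3, 14.3 and 15.1 CPM to 12.8, 10.4 and 11.0 CPM, without overlap. On the log2 scale it fell by 0.54 (SE 0.15, fold 0.686, 95% interval 0.550 to 0.856, adjusted p 0.0121). Without control replicate 1, its highest control, the log2 fold change was -0.38 (adjusted p 0.0666), and without FDI-6 replicate 2 the adjusted p was 0.0509. In the knockdowns its log2 fold changes were 0.09 in siMYBL2, 0.10 in siFOXM1 and -0.07 in siBoth, none past the test in either fit. The read-through gene HSPE1-MOB4 was listed at 0 in all 24 libraries, and 34.5% of the exon bases of the canonical HSPE1 transcript (192 of 557) also belong to it. HTSeq by default sets aside a pair that fits more than 1 gene as ambiguous, and the setting used here is not given. Ambiguous pairs made up 9.784 to 10.474% of the pairs in the FDI-6 files and 10.744 to 11.205% in their controls, and the part of this in the HSPE1 value was not tested. The control levels of HSPE1 also differed between experiments, at 19.3 ± 1.22 CPM in siControl (SD, n = 4), 35.1 ± 1.68 in siControl_Both (n = 3) and 16.6 ± 3.26 in control_FDI-6 (n = 3).

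Set directly against siFOXM1, siMYBL2 had lower HSF1 and HSPD1. HSF1 fell by 0.61 on the log2 scale (SE 0.06, fold 0.654, adjusted p 0.000272) and passed both thresholds, where 10.2% of the 16172 genes tested did. The fold was just past the limit, and without siMYBL2 replicate 4 or siFOXM1 replicate 1 it was within 1.5-fold. HSPD1 fell by 0.30 (SE 0.08, adjusted p 0.0314), with all 4 siMYBL2 libraries (790.7 to 942.6 CPM) below all 4 siFOXM1 libraries (963.4 to 1157 CPM), and 23.2% of all genes passed at an adjusted p under 0.05. Its call was lost without siMYBL2 replicate 1, 3 or 4 or siFOXM1 replicate 2 or 3, with adjusted p up to 0.0889. With the block 7 of the 10 genes passed, where 48.9% of all genes did. HSF1, HSP90AB1, HSPH1, HSPB1, BAG3 and HSPD1 were lower in siMYBL2 and HSPB8 was higher.

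The change of HSF1 with the MYBL2 siRNA alone and with the mixture was compared across the experiments. Its siBoth log2 fold change was higher than its siMYBL2 log2 fold change by 0.43 (SE 0.14, 95% interval 0.13 to 0.73), but the adjusted p was 0.448, where 0.176% of 17012 genes passed. With the block the difference was 0.43 (SE 0.08, adjusted p 0.00362), where 7.05% of all genes passed, and HSPB1 differed as well (0.34, SE 0.08, adjusted p 0.018). Residual MYBL2 was at 4.2% of its control mean in siMYBL2 and at 4.9% in siBoth. The comparison has its own controls on each side, and the experiments differ in the siRNA mixture.

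The change with FDI-6 was also set against the change in siBoth, since both treatments act on FOXM1. Of the 10 genes, 4 differed at an adjusted p under 0.05, where 32.6% of 16725 genes did. HSPH1 (0.42 higher on the log2 scale with FDI-6, SE 0.12, adjusted p 0.0134), BAG3 (0.53, SE 0.18, adjusted p 0.0353) and HSP90AA1 (0.38, SE 0.13, adjusted p 0.0451) differed in the direction of their rise with FDI-6. HSPE1 differed by -0.48 (SE 0.18, adjusted p 0.0485). HSPH1 kept its call under the 7 alternatives run and with each of the 12 libraries left out. Upper-quartile scaling lowered the median difference over all genes from -0.04 to -0.155 and left HSPH1 at 0.31 (adjusted p 0.0488), BAG3 at 0.42 (0.0874), HSP90AA1 at 0.26 (0.140) and HSPE1 at -0.60 (0.0176). HSPE1 did not pass with RLE scaling (0.0512), no filter (0.0544) or all 24 libraries in 1 fit (0.0512), and HSP90AA1 did not with at least 10 counts in every library (0.0574) or all 24 libraries (0.1). With a library left out, the adjusted p reached 0.101 for HSP90AA1, 0.0905 for BAG3 and 0.144 for HSPE1. HSP90AA1 lost its call without siBoth replicate 1 or 3, siControl_Both replicate 2, FDI-6 replicate 1 or 2 or any control_FDI-6 library. BAG3 lost it without siBoth replicate 3, siControl_Both replicate 2, FDI-6 replicate 2 or 3 or any control_FDI-6 library, and HSPE1 without any siBoth or siControl_Both library, FDI-6 replicate 2 or 3 or control_FDI-6 replicate 1.

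Other genes of the heat-shock machinery are described by lists of symbols, beside all genes tested. The lists overlap. STIP1, AHSA1, FKBP4, CHORDC1 and CACYBP are counted both as HSP90 cochaperones and as other heat-shock response genes. CRYAB and HSPA4L are also counted among the other heat-shock response genes, and TRAP1 both as an HSP90 paralog and in the mitochondrial list. With FDI-6, where 38.9% of all genes passed an adjusted p of 0.05, 8 of 16 other heat-shock response genes rose and 5 fell at that limit (81.2% passed), with a median log2 fold change of 0.16 against -0.01 over all genes. HSPA1B, an inducible HSP70, rose by 0.67 (SE 0.08, adjusted p 0.000116). HSPA1B and HSPA1A are near-identical copies, so the split of reads between them is uncertain. DNAJB1, an HSP40, rose by 0.53 (SE 0.07, adjusted p 0.000118). Of the other small heat-shock proteins, 2 of 8 had enough counts to be tested. CRYAB (alpha B-crystallin) was at 0.271 to 0.431 CPM in the controls and at 3.15 to 4.45 CPM with FDI-6 (log2 fold change 3.42, SE 0.31, adjusted p 1.09e-05), and HSPB11 fell by 0.58 (SE 0.13). Of 5 other BAG proteins, BAG4 and BAG5 rose and BAG1 fell. Of 18 HSP90 cochaperones, 9 fell and 1 rose (55.6% passed), with a median of -0.16. FKBP8 was the lowest of them (-0.51, SE 0.11), and CHORDC1 was the one that rose (0.26, SE 0.07). In the mitochondrial protein quality control list 2 of 15 rose and 5 fell (46.7%, near the share of all genes), and the stress factor DDIT3 (1.39, SE 0.18) was the only 1 over 1.5-fold. Of 8 TRiC subunits, which fold actin and tubulin, CCT3 and CCT7 fell and none rose (25.0%, under that share).

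In siMYBL2, 4 of 18 HSP90 cochaperones fell (STIP1, CDC37, FKBP4 and PPID, by 0.34 to 0.42 on the log2 scale) and none rose. This share of 22.2% is near the 18.1% of all genes, and the 9 that fell with the block stand beside 46.7% of all genes. Of 16 other heat-shock response genes, 3 fell and 1 rose, and with the block 8 fell and 1 rose. DNAJB1 fell by 0.58 (SE 0.10, adjusted p 0.0054) and DNAJB4 rose by 0.56 (SE 0.08, adjusted p 0.00226), both within 1.5-fold. Of the other BAG proteins, BAG1 and BAG5 fell, and with the block 1 other rose. The mitochondrial list had 1 of 15 lower (LONP1), and with the block 6 lower and 1 higher. Of the 8 TRiC genes 1 was lower (TCP1), and 7 with the block. Without the block none of the other HSFs, HSBP1, HSBP1L1, the HSP90 paralogs, HSP110 relatives or other small heat-shock proteins passed. With it both HSP90 paralogs fell (HSP90B1, the form of the endoplasmic reticulum, by 0.30, adjusted p 3.41e-05, and TRAP1, the mitochondrial form, by 0.14, adjusted p 0.0209), as did HSPA4 (-0.16, adjusted p 0.00579) and HSBP1L1 (-0.38, adjusted p 0.00676), and HSBP1 rose (0.12, adjusted p 0.0186).

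In siFOXM1 the lists held 1 gene past the test without the block, where 1.37% of all genes passed. It was FKBP5, a cochaperone of steroid receptors, at 26.1 to 28.8 CPM against 55.7 to 67.0 CPM in siControl (log2 fold change -1.16, SE 0.07, adjusted p 0.000125). With the block, where 26.3% of all genes passed, 2 of 18 cochaperones were higher and 3 lower, 5 of 16 other heat-shock response genes higher and 3 lower, 1 of 15 mitochondrial genes higher and 4 lower, and 2 of 8 TRiC genes lower. The list of other HSFs, HSBP1 and HSBP1L1 had 1 higher (HSF4), and the HSP110 relatives and BAG proteins each had 1 higher. HSP90B1 fell by 0.25 there (adjusted p 1.16e-06). FKBP5 also fell in siBoth, by 0.80 (SE 0.12, adjusted p 0.00597), and FKBP4, BAG5 and ATF5 fell there as well, where 12.3% of all genes passed. With the block, where 34.8% of all genes passed, siBoth had 1 cochaperone higher and 7 lower, 2 other heat-shock response genes higher and 5 lower, 2 mitochondrial genes higher and 4 lower, 1 TRiC gene lower, 2 BAG genes lower and HSP90B1 lower by 0.38 (adjusted p 0.000433). Set directly against siFOXM1, where 23.2% of all genes passed, siMYBL2 had 6 of 18 cochaperones lower and 1 higher (FKBP5, 1.30, SE 0.11), 38.9% of the list. Of 16 other heat-shock response genes 6 were lower and 1 higher (DNAJB4, 0.93, SE 0.08), 43.8% of the list. With the block these counts were 8 lower and 4 higher, and 10 lower and 2 higher, where 48.9% of all genes passed. With FDI-6 the list of other HSFs, HSBP1 and HSBP1L1 had 1 of 3 lower, the HSF1 regulator HSBP1 (-0.37). The factor HSF4 did not pass (edgeR, adjusted p 0.21). The HSP90 paralogs had 1 of 2 lower (TRAP1, -0.19), and the HSP110 relatives 1 of 3 higher (HSPA4L, 0.54).

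**Figure D4:**
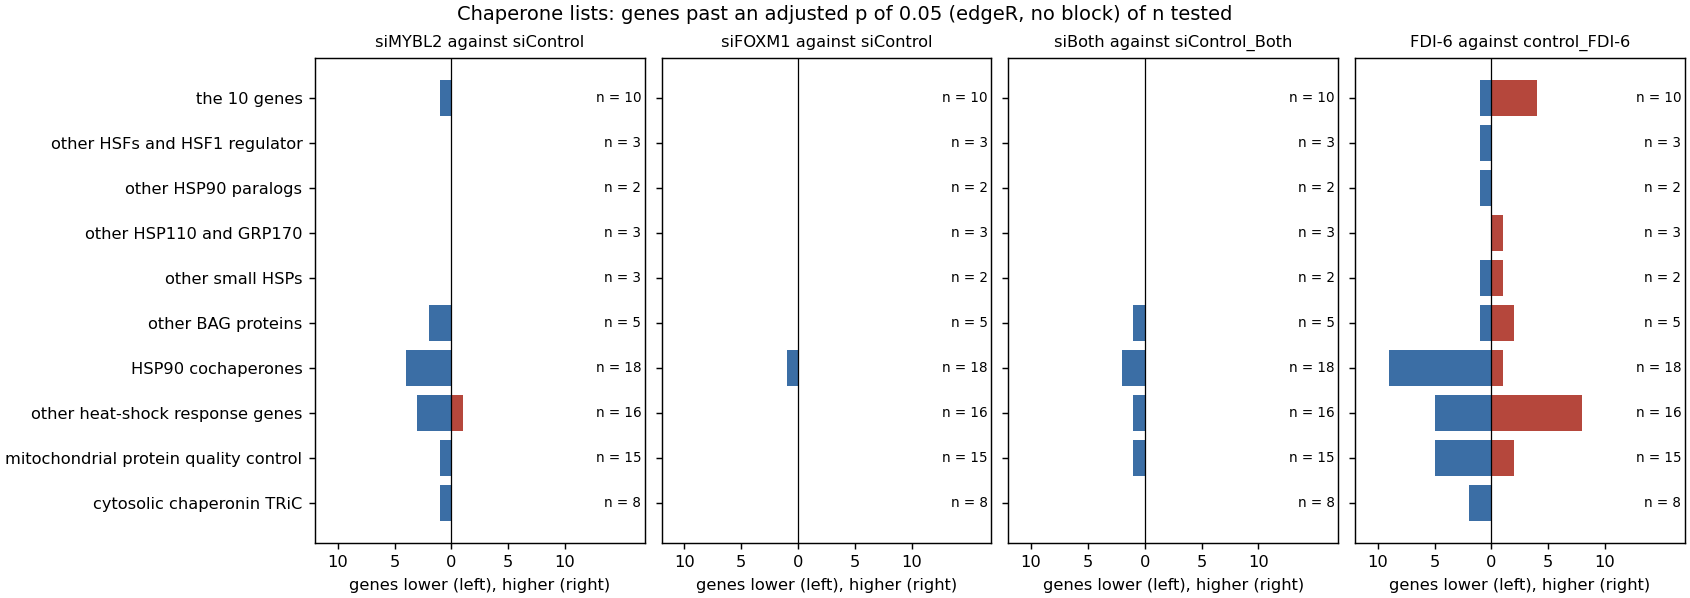
Number of genes past an adjusted p of 0.05 by edgeR without a block (x axis, lower to the left, higher to the right) in each list of chaperone genes (y axis), with the number tested (n), in the 4 comparisons. With FDI-6 the HSP90 cochaperones lie mainly to the left, 9 of 18, and the other heat-shock response genes more to the right, 8 of 16 against 5, where 38.9% of all genes passed. Some genes belong to both of these lists.

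Likeness of pattern was measured by Pearson's r over the 24 libraries, on log2 CPM taken as the difference from the mean of each experiment's own controls, among 9723 genes that averaged 10 CPM or more. Libraries share depth and replicate numbers, so these values are descriptions. Within the 10 genes HSPH1 and BAG3 were the most alike (r = 0.905), followed by HSP90AB1 with HSPD1 (0.884) and HSP90AA1 with HSPH1 (0.859). The least alike pair was HSF2 with HSPE1 (-0.507). Outside the 10, the genes most like HSP90AA1 were HSPA8 (0.952), a constitutive HSP70, TTC27 (0.929) and KPNA4 (0.903). Those most like HSPH1 were SLMAP (0.913), TXNRD1 (0.910) and HSPA8 (0.900). Those most like HSPD1 were FAM98A (0.922), LRRC59 (0.899) and NCOA5 (0.890).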

How the data were processed

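RNA-seq of polyadenylated RNA was analysed in 24 libraries of A549 cells in 7 groups. Per the labels and the methods, the authors trimmed reads with Trim Galore, aligned them with STAR to hg38 and made the deposited counts, read pairs per gene, with HTSeq. Versions, counting mode and strand setting are not given in the sources used here. The summary lines of each file stayed out of the library sizes. Gene symbols, places, exon lengths and exon overlaps came from GENCODE V44, which matched 58252 of 58721 IDs. The methods name an earlier GENCODE release for the alignment. Exon lengths and overlaps given here may thus differ from those of the gene models counted. Libraries held 16487394 to 30140550 pairs on genes, and no 2 of a group agreed within sampling noise.

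CPM are the deposited counts per 1e6 counted pairs, with library sizes taken from the genes that passed filterByExpr and scaled by TMM over all libraries. Each comparison was fitted to its own groups with edgeR 4.0.16 (R 4.3.3), with TMM scaling, filterByExpr and the quasi-likelihood test, and Benjamini-Hochberg adjustment over all genes tested. A gene passed both thresholds at an adjusted p under 0.05 and a change over 1.5-fold. Differences between effects were contrasts in 1 model of the 4 groups, and that of siBoth against siMYBL2 was added after the data were seen. Same-numbered libraries deviated together from their group means in the knockdowns (correlation 0.577 to 0.879 in siMYBL2, 0.548 to 0.909 in siFOXM1 and 0.558 to 0.692 in siBoth), but not with FDI-6 (-0.296 to 0.166), so the knockdown results are also given from fits blocked on that number. The study describes biological replicates. The labels name no separate cultures, so p-values measure the spread between these libraries. Alternatives were RLE and upper-quartile scaling, other filters, glmTreat, DESeq2 1.42.0, 1 fit of all libraries and leaving out each library. The edgeR and DESeq2 steps were tested on simulated data. All 10 genes were named in each comparison of a treatment with its control, whatever their values, but not every library value is printed. Other genes named from the lists passed a test in at least 1 fit, and some that passed are only counted. Genes of like pattern were the 3 with the highest r. The 10 genes and the lists were chosen with earlier results of these data known.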

Additional observations from a re-analysis of the deposited data

Results flagged for a closer look

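In 5 of 30 groups of 4 libraries 1 library stood apart from the other 3 by Dixon's criterion, which chance gives in about 1 group in 20. These were HSPH1 (356.5 CPM) and BAG3 (141.6 CPM) in siFOXM1 replicate 2, the highest of their group, HSPE1 in siMYBL2 replicate 2 (24.29 CPM, the highest), HSPB1 in siMYBL2 replicate 4 (342.4 CPM, the highest) and HSPB8 in siControl replicate 4 (11.88 CPM, the lowest). Replicate 2 was the highest library in all 3 groups of the single knockdowns for 6 of the 10 genes (HSP90AA1, HSP90AB1, HSPH1, BAG3, HSPD1 and HSPE1), and replicate 4 was the lowest for 4 (HSF1, HSP90AA1, HSP90AB1 and HSPB8).

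The change with FDI-6 and the change in siBoth differed at an adjusted p under 0.05 (edgeR, contrast of the changes) for 4 genes. Of all 16725 genes tested, 32.6% passed that limit. On the log2 scale, the FDI-6 change was higher by 0.375 for HSP90AA1, by 0.422 for HSPH1 and by 0.526 for BAG3. That of HSPE1 differed by -0.484. With each library left out in turn, HSPH1 passed in all 12 fits. BAG3 passed in 5 of the 12, HSP90AA1 in 4 and HSPE1 in 3. The experiments also differ in how cells were treated and in alignment and ambiguous shares, and the part of these in the differences was not tested.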

How the results depend on the processing

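HSF1 in siMYBL2 kept its call under 7 of the 8 alternatives and with each library left out, with log2 fold changes from -0.72 to -0.61. By glmTreat 0 of the 10 genes passed in siMYBL2, and 0 in siMYBL2 against siFOXM1, since that test asks for more than 1.5-fold by itself. With upper-quartile scaling 1 gene passed both thresholds with FDI-6 (HSPE1), 0 in siMYBL2 against siFOXM1 and 1 in the FDI-6 change against the siBoth change (HSPE1), and HSF2 with FDI-6 had an adjusted p of 0.06 and HSPD1 in siMYBL2 against siFOXM1 one of 0.0569. With no limit on the fold the counts were 5 with FDI-6, 2 in siMYBL2 against siFOXM1 and 4 in the FDI-6 change against the siBoth change. With a library left out, the counts past both thresholds ranged from 0 to 1 in each of these 3 comparisons.

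Upper-quartile scaling turned the sign of values near 0 that passed no test (HSF2 in siMYBL2 to 0.046, HSPE1 in siBoth to 0.007 and HSPB1 with FDI-6 to -0.005). Leaving out a library did so for HSF2 (-0.079 to 0.055) and HSPE1 (-0.012 to 0.127) in siMYBL2, for HSF2 (-0.006 to 0.116), HSP90AA1 (-0.104 to 0.073), HSP90AB1 (-0.091 to 0.042), HSPH1 (-0.096 to 0.112), BAG3 (-0.153 to 0.064) and HSPD1 (-0.017 to 0.098) in siFOXM1, for HSF2 (-0.007 to 0.212), HSPH1 (-0.13 to 0.014) and BAG3 (-0.19 to 0.06) in siBoth, and for HSPB1 (-0.02 to 0.121) and HSPD1 (-0.041 to 0.001) with FDI-6. The causes were not tested.

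For the 10 genes the replicate block changed no other call in the knockdowns than those given with the results. With FDI-6 the numbers do not pair the libraries. There 5 of 10 genes had an adjusted p under 0.05 with the block, where 5153 of 15240 genes did. Over all genes, those past both thresholds numbered 1991 with the block against 1269 without in siMYBL2, 401 against 106 in siFOXM1, 1849 against 1019 in siBoth and 271 against 27 in the siBoth change against the siMYBL2 change. DESeq2 gave 163 in siFOXM1 and 65 in that last comparison, no filter gave 1545 in siBoth, and glmTreat gave 199, 14, 128, 496 (of 2098) and 376 (of 1650) in siMYBL2, siFOXM1, siBoth, FDI-6 and siMYBL2 against siFOXM1 and 4 in the last. Upper-quartile scaling moved the share of higher genes among those called from 43.5 to 59.4% in siBoth and from 55.9 to 40.4% in the FDI-6 change against the siBoth change. HSF2, HSPB8 and HSPE1 had the lowest counts, at under 45 CPM in every library, and the part of depth in the precision was not tested.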

Other observations

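The level of HSPE1 in the controls differed between the experiments more than that of its partner HSPD1. HSPE1 stood at 18.3 to 21.0 CPM in siControl, at 33.7 to 37.0 CPM in siControl_Both and at 14.3 to 20.3 CPM in control_FDI-6, whereas HSPD1 stood at 895.7 to 1133, 936.3 to 1091 and 1120.0 to 1189 CPM. The share of ambiguous pairs was 9.246 to 9.601% in the single knockdowns with their controls, 7.884 to 8.12% in siBoth with its controls and 10.744 to 11.205% in control_FDI-6. Its part in the HSPE1 levels was not tested. HSPE1 pseudogenes together held at most 4.27% of the HSPE1 level in any library.

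DNAJB1, which encodes an HSP40 that acts with HSP70, fell by 0.58 on the log2 scale in siMYBL2 (adjusted p 0.0054, edgeR) and rose by 0.53 with FDI-6 (adjusted p 0.000118). Its FDI-6 change was higher than its siBoth change by 0.94 (SE 0.15, adjusted p 0.000429). BAG5, which fell by 0.32 in siMYBL2 and by 0.44 in siBoth, rose by 0.22 with FDI-6, and the difference from siBoth was 0.65 (SE 0.10, adjusted p 0.000377).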
